A study of Sus scrofa with 3 samples.

Results

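The genes examined here are the Wnt ligands, their receptors and antagonists, and the intracellular components that carry the signal. They were chosen by symbol among the mRNA genes of the deposited values, and 42 of 22826 mRNA genes matched: 15 WNT ligands, 9 receptors of the FZD and LRP families, 9 secreted antagonists (SFRP, DKK, WIF1 and FRZB), 6 cytoplasmic components (DVL, AXIN and CTNNB1) and 3 nuclear factors (TCF7L1, TCF7L2 and LEF1). No expression value entered the choice. The study compared visceral adipose tissue, taken as retroperitoneal fat, of male Wuzhishan miniature pigs, a small Chinese breed that entered the study at 6 to 7 months of age. All 3 groups were fed HFC, a diet rich in fat and cholesterol, for 12 weeks. The IM group was intact with skin incisions only, the CM group was castrated, and the CMT group was castrated and then injected weekly with testosterone propionate at 10 mg/kg. RNA of the pigs of a group (4 per group in the study's methods, between 4 and 6 in the sample labels) was pooled into 1 library, so each group is 1 value per gene. No difference below has a replicate check, and spread between pigs cannot be seen.

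Wnt proteins are secreted, lipid-modified glycoproteins. On the cell surface they bind a frizzled receptor (FZD) together with LRP5 or LRP6, and dishevelled proteins (DVL) pass the signal on. Without Wnt, a complex built on AXIN marks beta-catenin (CTNNB1) for destruction. With Wnt, beta-catenin accumulates and works with the TCF/LEF factors in the nucleus, while other Wnts act without beta-catenin. SFRP, FRZB and WIF1 proteins bind Wnts outside the cell, and DKK1 and DKK2 bind LRP5 and LRP6. In fat, beta-catenin-dependent Wnt signalling is known to hold preadipocytes back from becoming adipocytes, and SFRP5 is known as a secreted product of adipocytes.

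Expression is given in UQRPKM, which counts reads per kilobase of gene and scales them by the upper quartile of gene values instead of the total reads. Since the unit is per length, levels can be compared between genes. The values were whole multiples of 1 read, so the reads behind each one could be recovered. Reads on mRNA genes came to 14844063 (IM), 13582288 (CM) and 13449107 (CMT). Differences are log2 ratios of UQRPKM, with no pseudocount, each followed by an exact Clopper-Pearson 95% interval computed from the reads of both libraries. Reads are not independent molecules, so the interval covers counting error only and compares libraries, not conditions. The rule for a call was a 1.5-fold difference or more between libraries that both had at least 1 UQRPKM.

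The libraries matched their labelled tissue, since the adipocyte gene ADIPOQ stood at 74928 UQRPKM in IM against 69193 in CM and 63873 in CMT. Other tissues also differed between the libraries. The liver gene ALB had 2.61, 2910 and 4.00 UQRPKM, and 5 of 6 liver markers tested were higher in CM than in IM. Skeletal muscle markers summed to 102, 85.8 and 7048 UQRPKM, with 9 of 9 tested higher in CMT than in CM. Mesothelial markers, which mark the lining of the abdominal cavity, summed to 158, 301 and 753 UQRPKM. Of 8 mesothelial markers tested, 7 were higher and 1, KRT18, was lower in CMT than in CM, and LRRN4 was listed at 0 throughout. The 9 adipocyte markers found summed to 151383, 144066 and 120440 UQRPKM, with 1 higher and 3 lower in CMT than in CM. Their part in the results below was not tested. In pooled tissue, fewer cells of a type and less RNA per cell cannot be told apart.

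Of the 42 genes, 38 had a value above 0 in at least 1 library and 33 had at least 20 reads over the libraries. WNT3A, WNT8A, WNT8B and DKK4 were listed at 0 in all 3 libraries. A listed 0 is not taken here as absence of the transcript. The skeletal muscle markers CKM and TNNT3 were also at 0 in CMT, where ACTA1 of the same list had 3589 UQRPKM. WNT7A had 1 read, in CM, and WIF1 had 3 reads, in CMT. DKK1, an LRP5/6-binding antagonist, had 2, 1 and 2 reads in IM, CM and CMT, and FZD9 had 1, 6 and 3. WNT1 had 7 reads in CM and 0 in the other libraries. By counting error alone, a count of 0 allows up to 3 reads per library. The CM level of WNT1 was 2.45-fold that limit in IM and 2.40-fold that limit in CMT. These ratios leave out the counting error of the 7 reads and are not lower bounds. The exact interval of the log2 ratio began at 0.60 in CM versus IM and ended at -0.57 in CMT versus CM. No statement about change was made for the other genes with so few reads.

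Among the 33 genes with at least 20 reads, levels ran from 1.15 UQRPKM (FZD3 in CMT) to 2628 UQRPKM (SFRP5 in CM). The secreted antagonist SFRP5, the receptor FZD4 and beta-catenin were the most abundant genes in IM at 1682, 1529 and 1134 UQRPKM, and SFRP1 followed at 953. SFRP5 lay above 96.6% of the mRNA genes with a value in IM, 97.8% in CM and 94.2% in CMT. Ligands were far lower, apart from WNT5B at 386 UQRPKM in IM. Summed over each role, the 15 ligands reached 555 UQRPKM in IM against 452 in CM and 556 in CMT. The 9 secreted antagonists reached 3331, 4866 and 2957 UQRPKM. Antagonist expression was highest in CM, through SFRP5 and SFRP1. The ligand sum was lowest there through WNT5B alone, since the 14 other ligands summed to 168, 181 and 168 UQRPKM. The 9 receptors summed to 2388, 2439 and 2066 UQRPKM, the 6 cytoplasmic components to 2098, 1983 and 1934, and the 3 nuclear factors to 753, 532 and 541.

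**Figure D1:**
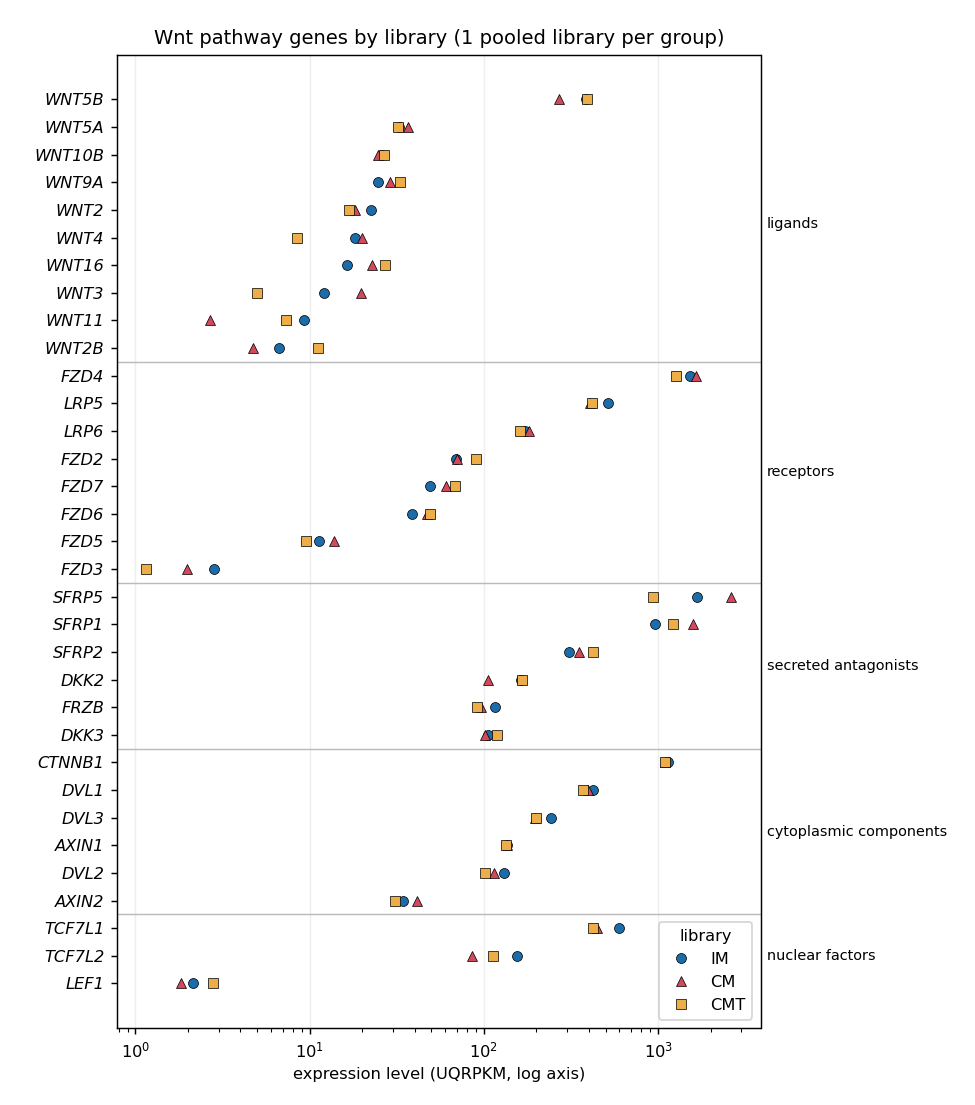
Expression level of the 33 Wnt pathway genes with at least 20 reads, in UQRPKM on a log axis, with 1 point per pooled library (IM circle, CM triangle, CMT square) and genes grouped by role. SFRP5, SFRP1, FZD4 and CTNNB1 lie highest, WNT5B stands above the other ligands, and the points of most receptors and cytoplasmic components lie close together.

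By the 1.5-fold rule, 6 of 33 genes tested were called in CM versus IM, 3 higher (SFRP1, SFRP5 and WNT3) and 3 lower (DKK2, TCF7L2 and WNT11). That is 18.2% of them, against 18.8% of all 14123 mRNA genes tested. In CMT versus CM, 8 of 33 were called (24.2%, against 19.5% of all mRNA genes), with DKK2, LEF1, WNT11 and WNT2B higher and FZD3, SFRP5, WNT3 and WNT4 lower. In CMT versus IM, 6 of 34 were called (17.6%, against 20.7%), with WNT16 and WNT2B higher (8.81% of all mRNA genes) and FZD3, SFRP5, WNT3 and WNT4 lower (11.9%). The shares lay near those of all genes in each comparison. In the same order of comparisons, the median log2 ratio of the genes tested was -0.05, 0.00 and -0.07, beside -0.06, -0.02 and -0.08 for all mRNA genes. In all, 11 genes were called in at least 1 comparison, and SFRP5 and WNT3 in each of them. The comparisons share libraries and are not independent.

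An exact binomial test on the reads, adjusted by Benjamini-Hochberg over all mRNA genes with reads, compares the libraries. Together with the 1.5-fold rule it left 5 genes in CM versus IM (15.2%, against 10.1% of all mRNA genes), and the gene lost was WNT3. The background was 4.38% higher and 5.76% lower, and the genes were SFRP1 and SFRP5 against DKK2, TCF7L2 and WNT11. It left 5 in CMT versus CM (15.2%, against 10.6%), without FZD3, LEF1 and WNT11. DKK2 and WNT2B were the higher genes (background 5.06%) and SFRP5, WNT3 and WNT4 the lower ones (5.56%). In CMT versus IM it left 4 (11.8%, against 11.9%), without FZD3 and WNT3. WNT16 and WNT2B were the higher genes (background 4.58%) and SFRP5 and WNT4 the lower ones (7.37%).

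Patterns over all 3 libraries were counted among the 33 genes with at least 1 UQRPKM in each. SFRP5 and WNT3 had CM levels 1.5-fold above both other libraries, as did 3.48% of mRNA genes, and DKK2 and WNT11 had CM levels 1.5-fold below both, as did 4.23%. WNT2B stood 1.5-fold above both others in CMT (3.84% of mRNA genes), and FZD3, SFRP5, WNT3 and WNT4 stood below both (4.88%). IM was 1.5-fold above or below both others for 0 of the 33 genes (4.22% and 3.54% of mRNA genes).

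**Figure D2:**
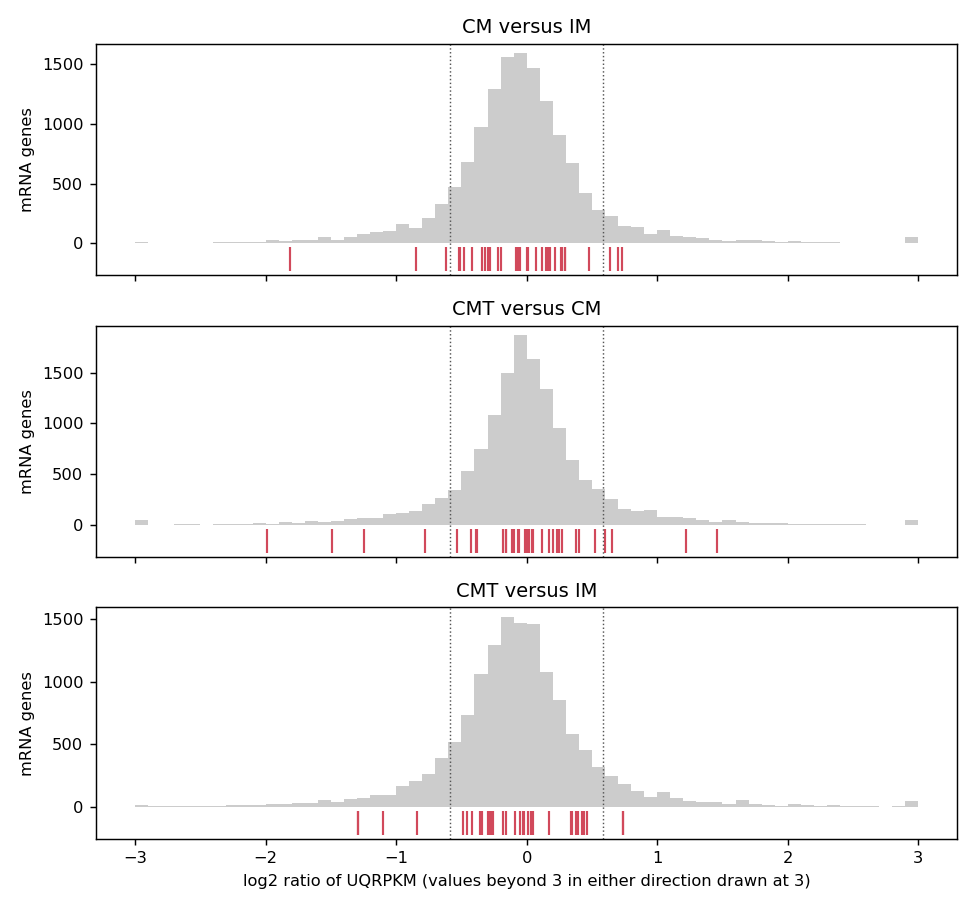
Distribution of the log2 ratio of UQRPKM over all mRNA genes that reached 1 UQRPKM in each library compared (grey bars, number of genes per bin of 0.1), with the Wnt pathway genes as red ticks and dotted lines at 1.5-fold. The ticks spread over the same range as most genes, and their medians (-0.05, 0.00 and -0.07) lie near those of all genes (-0.06, -0.02 and -0.08).

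The secreted antagonists held the most abundant genes that were called. SFRP5 had 1682 UQRPKM in IM against 2628 in CM and 938 in CMT (2932, 4366 and 1603 reads). It was highest in CM and lowest in CMT. The log2 ratio was 0.64 (95% interval 0.58 to 0.71) in CM versus IM, a 1.56-fold higher level. In CMT it was 2.80-fold lower than in CM (log2 ratio -1.49, 95% interval -1.57 to -1.40) and 1.79-fold lower than in IM (-0.84, -0.93 to -0.75). The CMT level therefore lay below the intact level, not at it. The summed adipocyte markers were also lowest in CMT. The markers called in any comparison did not share 1 order. In IM, CM and CMT, LEP, the leptin gene, had 167, 502 and 156 UQRPKM, highest in CM, whereas PCK1, an enzyme of glyceride synthesis, had 5402, 3377 and 5326, lowest in CM. GPD1, a glycerol phosphate enzyme, had 7876, 7479 and 4925 UQRPKM and PLIN4, a lipid droplet gene, had 8944, 9349 and 4585, both lowest in CMT. The other 5 markers were called in no comparison.

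SFRP1, a close relative that also binds Wnts, had 953 UQRPKM in IM against 1584 in CM and 1219 in CMT (6034, 9555 and 7560 reads). It too was highest in CM, but its CMT level lay between the other libraries. Its log2 ratio was 0.73 (0.69 to 0.78) in CM versus IM, -0.38 (-0.42 to -0.33) in CMT versus CM and 0.35 (0.31 to 0.40) in CMT versus IM, and only the first of these passed 1.5-fold. SFRP2, another member of the family, had 310, 350 and 421 UQRPKM and was highest in CMT. Its log2 ratio in CMT versus IM was 0.44 (0.32 to 0.57).

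The SFRP genes therefore changed places. Within a library the ratio of SFRP5 to SFRP1 does not depend on scaling. It was 1.76 (95% interval 1.69 to 1.84) in IM, 1.66 (1.60 to 1.72) in CM and 0.770 (0.729 to 0.813) in CMT. SFRP5 made up 50.5% of the summed expression of the antagonists found in IM, 54.0% in CM and 31.7% in CMT. SFRP4 matched no deposited name or LOC number and is not in these sums. SFRP1 made up 28.6%, 32.6% and 41.2%, respectively, and was the leading antagonist in CMT among those found. The ratio of SFRP2 to SFRP1 was 0.325 (0.303 to 0.348) in IM, 0.221 (0.207 to 0.236) in CM and 0.345 (0.325 to 0.367) in CMT, lowest in CM with no overlap of its interval with the others.

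DKK2, which binds LRP5 and LRP6, ran the opposite way to SFRP5 and SFRP1. It had 162 UQRPKM in IM against 106 in CM and 165 in CMT (521, 323 and 520 reads). The CM value was the low one and the other libraries lay close together. The log2 ratio was -0.62 (-0.83 to -0.42) in CM versus IM and 0.65 (0.44 to 0.85) in CMT versus CM, while in CMT versus IM it was 0.03 (-0.15 to 0.20). The CM versus IM difference lay close to the 1.5-fold limit, and scaling by recovered reads or by the median ratio moved it to -0.56, which is no longer called. DKK3, a divergent member of the family, had 106, 101 and 119 UQRPKM, and its interval in CM versus IM included 0. FRZB, a Wnt-binding protein, had 116, 95.9 and 91.2 UQRPKM and was highest in IM, with a log2 ratio of -0.35 (-0.57 to -0.13) in CMT versus IM that stayed under 1.5-fold.

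**Figure D3:**
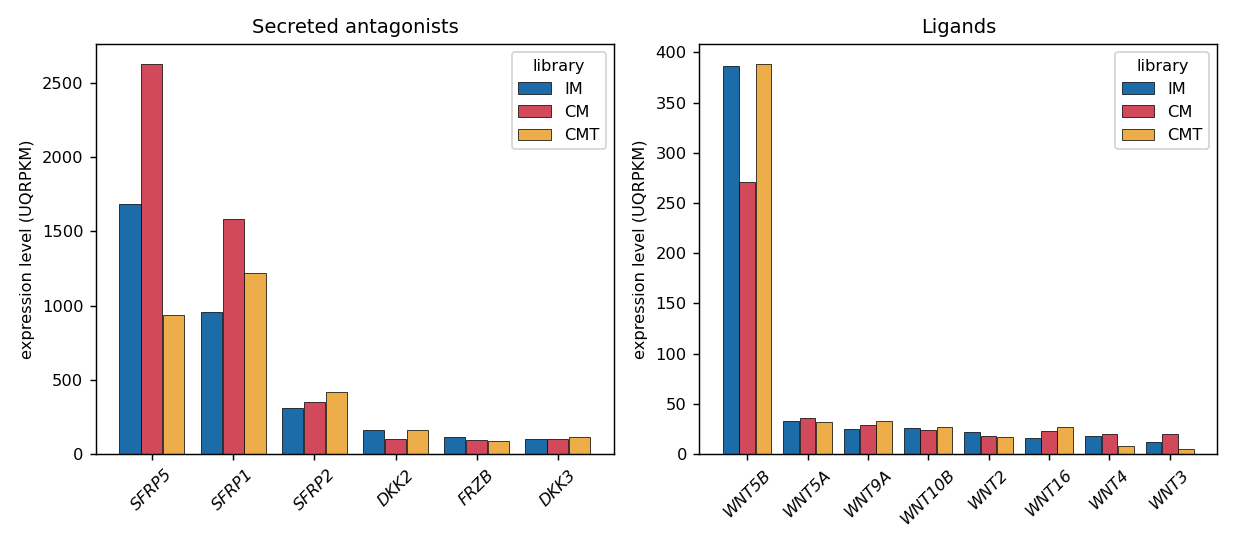
Expression level in UQRPKM of the 6 secreted antagonists (left) and of 8 ligands (right) in the IM, CM and CMT libraries, with 1 bar per pooled library and no error bars because each group is 1 library. SFRP5 reads 1682, 2628 and 938 UQRPKM and SFRP1 953, 1584 and 1219, while DKK2 and WNT5B are lowest in CM.

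Among the ligands, 10 of 15 were tested. WNT5B, a ligand that mostly acts without beta-catenin, took 69.6% of the summed ligand expression in IM, 60.0% in CM and 69.9% in CMT. It had 386 UQRPKM in IM against 271 in CM and 389 in CMT (366, 245 and 361 reads). As with DKK2, CM was the low library and IM and CMT lay together. Its log2 ratio was -0.51 (-0.75 to -0.27) in CM versus IM and 0.52 (0.28 to 0.76) in CMT versus CM. These are differences of 1.42-fold and 1.43-fold, just under the rule, with intervals that leave out 0. In CMT versus IM it was 0.01 (-0.20 to 0.22). WNT5A, its close paralog, had 32.7, 36.5 and 32.1 UQRPKM, and all its intervals included 0. The ratio of WNT5B to WNT5A was 11.8 (9.24 to 15.3) in IM, 7.43 (5.78 to 9.64) in CM and 12.1 (9.43 to 15.7) in CMT. The CM interval overlapped those of both IM and CMT.

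WNT4 and WNT3 were low in CMT. WNT4 had 18.1 UQRPKM in IM against 20.05 in CM and 8.44 in CMT (92, 97 and 42 reads). IM and CM lay together, and CMT was 2.37-fold lower than CM (log2 ratio -1.25, -1.81 to -0.71) and 2.15-fold lower than IM (-1.10, -1.66 to -0.56). WNT3, a ligand of the beta-catenin branch, had 12.1, 19.8 and 4.96 UQRPKM from only 20, 31 and 8 reads. Its CMT level was 3.98-fold lower than in CM (-1.99, -3.33 to -0.84), whereas its interval in CM versus IM (log2 ratio 0.70, -0.16 to 1.59) included 0.

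WNT2B and WNT16 were highest in CMT. WNT2B had 6.65, 4.76 and 11.1 UQRPKM from 44, 30 and 72 reads, and was 2.33-fold higher in CMT than in CM (log2 ratio 1.22, 0.59 to 1.89) and 1.67-fold higher than in IM (0.74, 0.18 to 1.32). WNT16 had 16.3, 22.8 and 27.2 UQRPKM from 60, 80 and 98 reads, with a log2 ratio of 0.74 (0.26 to 1.23) in CMT versus IM. In CMT versus CM its interval included 0 (log2 ratio 0.25, -0.19 to 0.70). The mesothelial marker MSLN had 6.47, 15.4 and 59.5 UQRPKM over the same libraries and KRT8 had 51.2, 103 and 307. KRT18 of the same list went the other way, at 28.7, 26.7 and 14.4 UQRPKM. Of 8 mesothelial markers tested, 7 were higher and 1 was lower in CMT than in CM. The part of these markers in the ligand levels was not tested.

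WNT11, a ligand of the branch without beta-catenin, was low in CM, with 9.32 UQRPKM in IM against 2.67 in CM and 7.35 in CMT. It rested on 22, 6 and 17 reads, so its intervals were wide, from -3.40 to -0.46 around a log2 ratio of -1.81 in CM versus IM and from 0.05 to 3.09 around 1.46 in CMT versus CM. WNT10B, known as a brake on adipocyte formation, had 25.9, 24.6 and 26.7 UQRPKM from 85, 77 and 86 reads. The log2 ratio of CM to IM was -0.07 (-0.54 to 0.39), and smaller differences were not detectable at this depth. WNT9A had 24.7, 28.7 and 33.0 UQRPKM and WNT2 had 22.5, 18.1 and 16.8. Of their intervals, those of WNT2 against IM left out 0, with a log2 ratio of -0.42 (-0.73 to -0.11) in CMT versus IM.

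**Figure D4:**
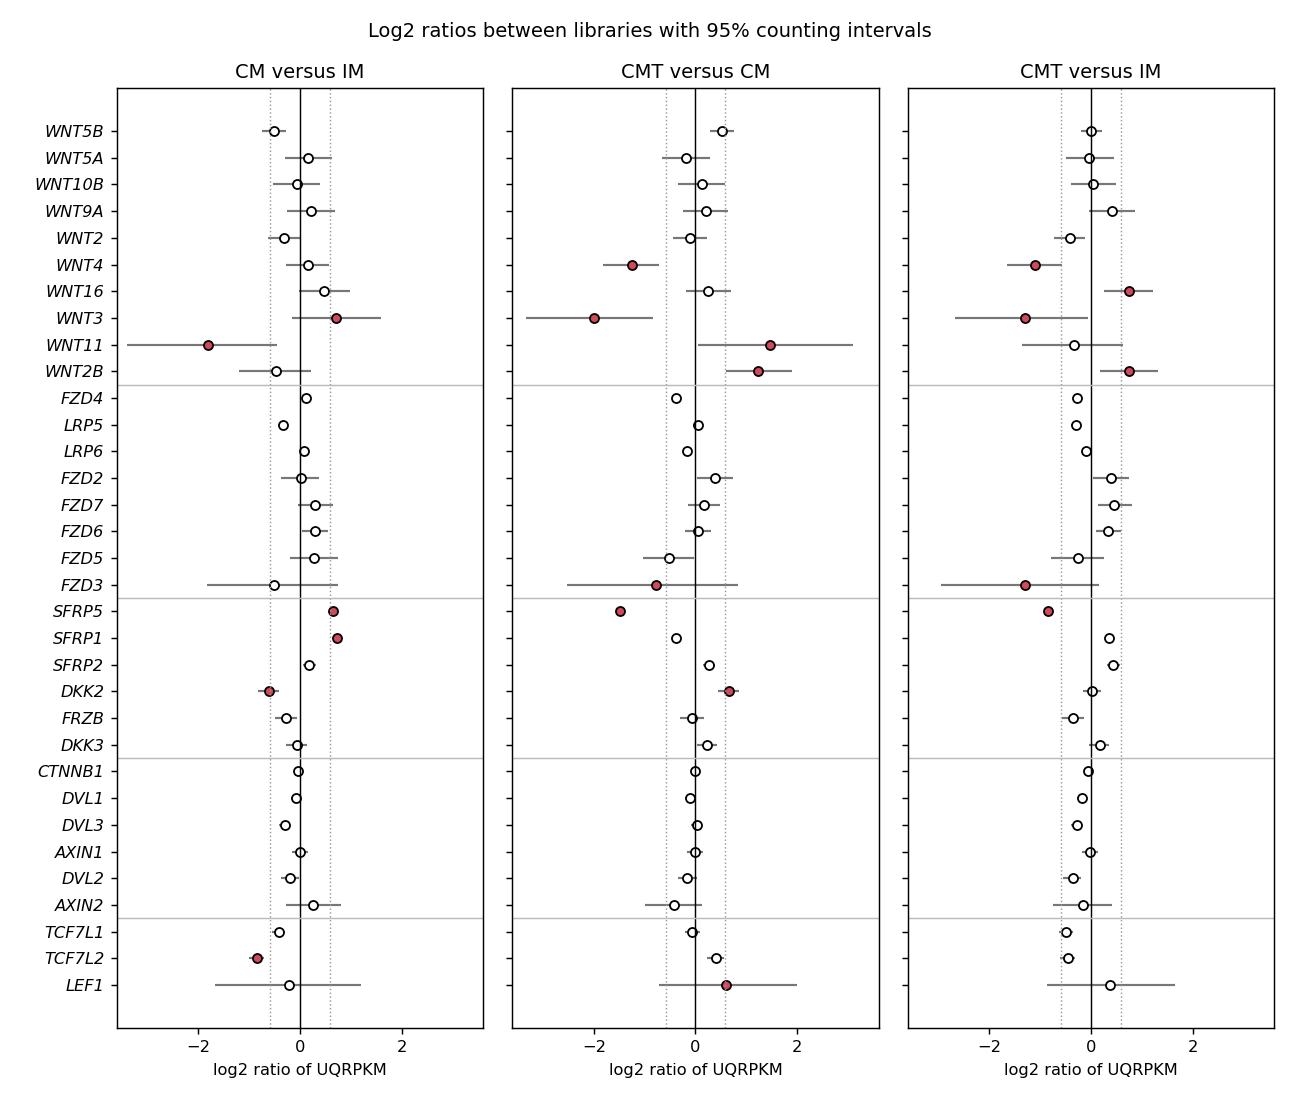
Log2 ratio of UQRPKM for CM versus IM (left), CMT versus CM (middle) and CMT versus IM (right) in the 33 genes with at least 20 reads (points), with exact Clopper-Pearson 95% intervals for counting error (lines), filled red where the gene was called at 1.5-fold and dotted lines at that limit. SFRP5 is called in all panels, DKK2 lies on opposite sides of 0 in the left and middle panels, and the receptors and cytoplasmic components stay within the limits apart from FZD3.

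None of the 8 receptors tested was called in CM versus IM, against 18.8% of all mRNA genes. FZD4, the most abundant frizzled among those found, had 1529 UQRPKM in IM against 1657 in CM and 1268 in CMT (15857, 16380 and 12889 reads). It was lowest in CMT, with a log2 ratio of -0.39 (-0.42 to -0.35) in CMT versus CM, a difference of 1.31-fold. FZD7, FZD2 and FZD6 each had their highest value in CMT. In CMT versus CM, however, only the interval of FZD2 left out 0 (log2 ratio 0.38, 0.03 to 0.73). Those of FZD7 (0.17, -0.15 to 0.49) and FZD6 (0.05, -0.20 to 0.30) included it. FZD7 had 49.4, 60.4 and 67.9 UQRPKM, with a log2 ratio of 0.46 (0.13 to 0.80) in CMT versus IM, FZD2 had 69.1, 69.6 and 90.5, and FZD6 had 38.5, 47.2 and 48.8. Within a library, FZD4 exceeded FZD7 by a ratio of 31.0 (26.1 to 37.0) in IM and 18.7 (16.1 to 21.8) in CMT.

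LRP5, the co-receptor, had 516 UQRPKM in IM against 406 in CM and 418 in CMT (2695, 2024 and 2140 reads). It was highest in IM, with a log2 ratio of -0.34 (-0.43 to -0.26) in CM versus IM, under 1.5-fold. LRP6, its paralog, had 172, 181 and 162 UQRPKM. The ratio of LRP5 to LRP6 was 2.99 (2.83 to 3.17) in IM, 2.24 (2.11 to 2.38) in CM and 2.58 (2.43 to 2.74) in CMT, with no overlap among the intervals. FZD5 had 11.3, 13.7 and 9.49 UQRPKM. FZD3 was called lower in CMT, at 2.82, 1.98 and 1.15 UQRPKM, but from 15, 10 and 6 reads, and all its intervals included 0.

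None of the 6 cytoplasmic components was called in any comparison, while between 18.8% and 20.7% of all mRNA genes were. At such shares, the lack of a call among 6 genes does not set the group apart. Their log2 ratios ran from -0.43 (AXIN2 in CMT versus CM) to 0.26 (AXIN2 in CM versus IM). Beta-catenin mRNA (CTNNB1) had 1134 UQRPKM in IM against 1097 in CM and 1096 in CMT (6401, 5902 and 6065 reads). Its log2 ratio in CMT versus CM was 0.00 (-0.05 to 0.05), and the sign of its differences from IM changed with the scaling. These are mRNA levels, and beta-catenin is controlled chiefly as a protein. AXIN1, the scaffold of the destruction complex, had 136, 136 and 134 UQRPKM. AXIN2, a scaffold that is itself a known target of beta-catenin, had 34.5, 41.4 and 30.8 UQRPKM from 56, 64 and 49 reads, and all its intervals included 0. DVL1, DVL2 and DVL3 were highest in IM, at 420, 131 and 242 UQRPKM. DVL1 had 398 UQRPKM in CM and 371 in CMT, a log2 ratio of -0.18 (-0.28 to -0.08) in CMT versus IM. DVL2 had 114 UQRPKM in CM and 102 in CMT, a log2 ratio of -0.36 (-0.54 to -0.19) in CMT versus IM, and DVL3 had 197 and 199.

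TCF7L2 and TCF7L1 were lower in CM than in IM, and the first of them passed 1.5-fold. TCF7L2, a partner of beta-catenin, had 154 UQRPKM in IM against 85.4 in CM and 113 in CMT (994, 524 and 710 reads). CM was the low library and CMT lay between the others. The log2 ratio was -0.85 (-1.01 to -0.70) in CM versus IM, a 1.81-fold lower level. It was 0.40 (0.23 to 0.56) in CMT versus CM and -0.46 (-0.60 to -0.32) in CMT versus IM, both under 1.5-fold. TCF7L1, a TCF that mostly represses, had 596, 445 and 426 UQRPKM and was highest in IM, with log2 ratios of -0.42 (-0.56 to -0.29) in CM versus IM and -0.49 (-0.62 to -0.35) in CMT versus IM. The ratio of TCF7L2 to TCF7L1 was 0.259 (0.237 to 0.282) in IM, 0.192 (0.172 to 0.215) in CM and 0.264 (0.239 to 0.293) in CMT. LEF1, known for its part in T cells, had 2.13, 1.83 and 2.77 UQRPKM from 11, 9 and 14 reads. It was called higher in CMT versus CM, but its interval ran from -0.71 to 1.99. The 10 T cell markers summed to 1793, 1547 and 1622 UQRPKM, of which CD247 alone gave 1378, 1172 and 1205. In CMT versus CM, 2 of the 10 were called higher and 1 lower, so the sum mostly follows 1 gene. Their part in the LEF1 level was not tested.

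Some family genes were deposited under LOC numbers and were matched by gene ID to a RefSeq gene table of the Sscrofa11.1 assembly. FZD10 (LOC100511782) had 20.6, 30.4 and 19.6 UQRPKM in IM, CM and CMT from 78, 110 and 73 reads. WNT10A (LOC100623646) had 2, 4 and 4 reads, WNT7B (LOC100626947) had 2, 1 and 0, WNT9B (LOC100738655) had 1, 0 and 0, and WNT6 (LOC100622044) was listed at 0. A further entry for WIF1 (LOC100512657) had 4, 1 and 2 reads. TCF7 (LOC100512951), deposited as miscRNA and not mRNA, had 11.2, 11.7 and 6.22 UQRPKM from 55, 55 and 30 reads. SFRP4, FZD1 and FZD8 matched neither a name nor a LOC number and were not analysed here.

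Other Wnt pathway genes were taken from a list of 89, of which 82 were found as mRNA genes and 65 could be tested in each comparison. In CM versus IM, 2 were higher and 10 lower. In CMT versus CM, 9 were higher and 0 lower, and in CMT versus IM, 5 were higher and 5 lower. Over all mRNA genes the shares higher and lower were 8.38% and 10.4% for CM versus IM. They were 9.53% and 9.97% for CMT versus CM, while CMT versus IM had 8.81% and 11.9%. The first 2 comparisons share the CM library, so the directions are not independent. Their median log2 ratios were -0.06, 0.10 and -0.10.

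Of the nuclear partners, 3 of 10 tested were lower in CM than in IM, against 10.4% of all mRNA genes. BCL9, the adaptor that ties beta-catenin to its coactivators, had 140 UQRPKM in IM against 76.3 in CM and 115 in CMT (1307, 681 and 1055 reads). Its log2 ratio was -0.87 (-1.01 to -0.74) in CM versus IM and 0.59 (0.45 to 0.73) in CMT versus CM, so that it followed the order of TCF7L2. TLE1 and TLE2, corepressors of the TCF factors, had log2 ratios of -0.73 (-0.97 to -0.50) and -0.74 (-1.20 to -0.28) in CM versus IM. TMEM88 (LOC100523138), an inhibitor that binds dishevelled, had 117, 63.6 and 69.6 UQRPKM, a log2 ratio of -0.88 (-1.27 to -0.50) in CM versus IM. It was the single gene called among 14 tested regulators of the destruction complex and dishevelled in that comparison (18.8% of all mRNA genes).

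Among receptors outside the FZD and LRP5/6 families, ROR2, a receptor for WNT5A, had 19.6, 33.5 and 28.2 UQRPKM and was higher in CM than in IM by a log2 ratio of 0.77 (0.41 to 1.15). LRP4, a relative of LRP5 and LRP6, had 9.17, 8.45 and 15.9 UQRPKM and ROR1, the paralog of ROR2, had 2.15, 2.12 and 5.16, both highest in CMT. Their log2 ratios in CMT versus CM were 0.91 (0.51 to 1.32) and 1.28 (0.41 to 2.22). GPC4, a cell surface proteoglycan, had 77.8, 52.2 and 46.5 UQRPKM, and IGFBP4, an extracellular inhibitor, had 938, 711 and 611. Both were lower in CMT than in IM, with log2 ratios of -0.74 (-0.97 to -0.51) and -0.62 (-0.76 to -0.48).

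Of the known target genes, 1 was higher and 3 were lower in CM than in IM among 10 tested. Over all mRNA genes the shares were 8.38% higher and 10.4% lower. CCND1 (LOC100738589), the cyclin D1 gene, had 77.6, 51.5 and 71.3 UQRPKM from 239, 151 and 215 reads, a log2 ratio of -0.59 (-0.90 to -0.29) in CM versus IM. At 1.51-fold lower it lay close to the limit, and its call was not checked under other scalings. WISP2 (LOC100522769) and FOSL1 were also called lower, from few reads (19, 3 and 9 for WISP2 and 11, 5 and 8 for FOSL1). WISP1 was the gene called higher, from 3, 9 and 10 reads. PPARD, a nuclear receptor, had 351, 317 and 223 UQRPKM, with a log2 ratio of -0.65 (-0.76 to -0.54) in CMT versus IM, and TNFRSF19, of the TNF receptor family, had 9.03, 12.4 and 13.8, with 0.61 (0.15 to 1.08). Of 5 genes tested among the R-spondins and their receptors, 3 had a CM level called below both IM and CMT, against 4.23% of mRNA genes. All 3 had few reads and were named after their values were seen. ZNRF3 and RNF43, the ligases that remove frizzled receptors, had 7.31, 2.91 and 6.69 UQRPKM and 3.82, 1.78 and 3.32 UQRPKM, from 29, 11 and 26 reads and 27, 12 and 23 reads. Their log2 ratios in CM versus IM were -1.33 (-2.48 to -0.29) and -1.10 (-2.22 to -0.07). In CMT versus CM the interval of ZNRF3 ran from 0.13 to 2.37, while that of RNF43 (log2 ratio 0.90, -0.17 to 2.04) included 0. LGR5, a receptor for R-spondins, had 3.14, 1.41 and 15.6 UQRPKM from 7, 3 and 34 reads, a log2 ratio of 3.46 (1.79 to 5.81) in CMT versus CM. In CM versus IM its log2 ratio was -1.15 with an interval that included 0 (-3.74 to 0.98). Neither PORCN nor WLS, which acylate and export Wnts, was called, and WLS had 126, 123 and 133 UQRPKM. Of 15 genes tested in the planar polarity and beta-catenin-independent list, 1 was called in CMT versus CM (19.5% of all mRNA genes). In the comparisons with IM, 0 were called (18.8% of all mRNA genes for CM and 20.7% for CMT). That gene, VANGL2, rested on 18, 14 and 23 reads and was named after its values were seen.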

How the data were processed

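Visceral adipose RNA of 3 groups was sequenced as 1 pooled library per group on an Ion Proton instrument. Filtered reads were mapped by the authors with MapSplice against Sscrofa 10.2, and they deposited RPKM values scaled by the upper quartile (UQRPKM) for 34570 genes. The counting tool and annotation are not given in the sources used here. Groups were taken from the sample titles.

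Reads were recovered with upper quartiles of 149, 142 and 146 for IM, CM and CMT, as the smallest whole numbers that fitted the 10 significant digits of the values. This succeeded for 100% of 20838 genes above 0. In a check on made-up reads for 1968 genes, 92.1% came back exactly and 7.93% came back too low by a common factor, which widens the intervals. Analyses used Python 3.11.15, NumPy 2.4.6 and SciPy 1.17.1.

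The genes, the other pathway genes and the marker lists were chosen with earlier results of these data known. Genes with at least 20 reads over the libraries were described one by one. Other pathway genes were named if called with at least 50 reads over both libraries, at most 6 per direction. Exceptions were the genes given with few reads and the uncalled PORCN and WLS. Marker genes were named as examples of their lists. Marker lists that are not described beside the results summed, in IM, CM and CMT, to 81308, 77392 and 79634 UQRPKM (stromal progenitor), 8802, 7836 and 8501 (endothelial), 6216, 4791 and 4910 (smooth muscle), 7846, 6703 and 6309 (macrophage), 52.2, 40.6 and 38.6 (B cell), 366, 620 and 399 (adrenal cortex) and 0 (kidney). A sum follows its most abundant genes, and single markers could differ from it. Of 8 macrophage markers tested in CM versus IM, 1, EMR1, was called higher (45.6, 93.6 and 30.6 UQRPKM) and 0 lower. The macrophage sum and counts leave out CD68, which was not found under that symbol. The study lists CD68 under a LOC number and reports it higher in CM and lower in CMT, by sequencing and by qRT-PCR. Of 6 smooth muscle markers tested in CMT versus CM, 1, DES, was called higher (52.9, 32.95 and 459 UQRPKM) and 0 lower. The skeletal muscle markers were also highest in CMT (sums of 102, 85.8 and 7048 UQRPKM). Their part in the DES level was not tested. Alternatives were other scalings, filters, pseudocounts, folds and the exact test. No coordinates or sequences are given because the gene table at hand is of another build.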

Additional observations from a re-analysis of the deposited data

How the results depend on the processing

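The counts of Wnt pathway genes called at 1.5-fold were 6 for CM versus IM, 8 for CMT versus CM and 6 for CMT versus IM. A fold change of 2 left 1 of 33, 5 of 33 and 3 of 34 genes tested, against 8.06%, 8.69% and 8.21% of all mRNA genes. In CMT versus CM, a minimum of 5 UQRPKM in both libraries left 3 of 28 (13.6% of all mRNA genes). The exact test on reads left 5 of 33 there (10.6%). Under each other alternative tried (the 3 scalings, no filter, a pseudocount of 1 and, chosen after seeing the data, a minimum of 20 reads and the addition of genes under LOC numbers) the counts stayed within 1.5 times of these. The median log2 ratios lay between -0.05 and 0.01, -0.01 and 0.05, and -0.09 and 0.04 over the alternatives, so their sign depended on the setting. Of the 99 log2 ratios of single genes, 0 of the 20 at 1.5-fold or more changed sign under the scalings or the pseudocount. Of the 79 smaller ones, 6 did: AXIN1 in both CMT comparisons, CTNNB1 in both comparisons with IM, and LRP6 and WNT5A in CMT versus IM. DKK2 in CM versus IM lost its call under scaling by recovered reads and by the median ratio, and FZD3 and LEF1 in CMT versus CM lost theirs with the pseudocount. Over all mRNA genes, the split in CMT versus IM moved from 1246 higher and 1690 lower to 1626 and 1239 under scaling by recovered reads. Each group is 1 pooled library, so no replicate could be left out. No paired analysis was possible because no group has replicates. Genes with few reads, such as WNT11, WNT3, FZD3 and LEF1, are limited by depth.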
